A study of Homo sapiens with 8 samples.

Results

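The genes described here were the 200 ZNF genes with the most ribosome-protected fragments in U-2 OS, an osteosarcoma line of human origin. Of 60664 gene identifiers in the count tables, 508 were protein-coding genes whose symbol is ZNF followed by a number and at most 1 letter, and the 200 with the highest counts summed over both TRiC input libraries were kept as members, so that the members were chosen by their TRiC input counts. The last member, ZNF689, had 473 counts in those inputs, and the first gene left out, ZNF32, had 464. The members ranged from there to 14143 counts for ZNF638, with a median of 1009.5, and held 86.6% of the ZNF counts and 0.563% of all counts in the TRiC inputs. Levels in those inputs are therefore a description, and the TRiC comparison shares its denominator with the choice. The PFD libraries took no part in it.

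Selective ribosome profiling had been done in a pair of U-2 OS lines, a CCT4-Halo line, in which a subunit of the chaperonin TRiC carried a HaloTag, and a PFDN4-Halo line, in which a subunit of prefoldin (PFD) did. Both lines were genome-edited single clones. All cells were treated with cycloheximide (100 µg/ml for 1 min) and crosslinked with DSP (2 mM for 30 min). Ribosome-protected fragments were sequenced from total ribosomes (input) and from ribosomes recovered on the HaloTag (pulldown), with 2 biological replicates in each of the 4 groups.

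The 8 libraries held 9523128 to 32637658 counts, and the members took 0.533% to 0.629% of each. No member was at 0 in the TRiC libraries or the PFD inputs, and 4 members were at 0 in PFD pulldown 1, the smallest library. Replicates lay closer together in the TRiC line. Between both TRiC pulldowns a member differed by a median of 1.12-fold and none by over 2-fold, whereas between both PFD pulldowns the median was 1.55-fold and 61 of 199 members differed by over 2-fold. The 6 mesenchymal marker genes fixed for U-2 OS summed to 8662 to 11998 CPM (counts scaled by library size) per library. The 8 markers of blood, epithelium, liver and nerve summed to 1.58 to 25.9 CPM. Single markers varied more. CD44, of the first list, ran from 125 to 920 CPM, with more counts in every PFD library than in any TRiC library. EPCAM, of the second, ran from 0.105 to 18.4 CPM.

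Cys2-His2 zinc fingers are short modules in which a pair of cysteines and a pair of histidines hold a zinc ion, and in most ZNF proteins many such fingers follow each other, joined by a conserved TGEKP linker, to read a stretch of DNA. Many family members also carry a KRAB box, which recruits TRIM28 (KAP1) and with it the SETDB1 methyltransferase and HP1 proteins to silence transposons and genes. A smaller number have other work, in ribosome quality control, RNA binding or mitosis. TRiC encloses newly made proteins and helps them to fold, actin and tubulin above all, and PFD holds such chains and passes them on.

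The family's repeated build was visible in the coding sequences. Across their coding exons in the reference (GENCODE 44, hg38), 196 members held at least 1 finger pattern, with a median of 10 and up to 36. The exceptions were ZNF703, ZNF503, ZNF185 and ZNF330, in which the pattern was not found. Fragments from such repeats can match several genes, and the deposited counts hold unique alignments only, so 28-base windows shared with another gene's coding sequence show where reads could be lost. The first window below was the one found in most members (ZNF146, ZNF266, ZNF568, ZNF621, ZNF627, ZNF699 and ZNF791) and lay in 25 coding sequences in all. The second was the window found in the most coding sequences, 54, of which ZNF107, ZNF141, ZNF678 and ZNF92 are members. Both are shown 5′ to 3′ on the coding strand with the codons of the TGEKP linker in capitals. The first lies in ZNF146 at chr19:36236972-36236999, plus strand, and the second in ZNF141 at chr4:373349-373376, plus strand.
ZNF146 window: cacACTGGAGAGAAACCCtatgaatgta
ZNF141 window: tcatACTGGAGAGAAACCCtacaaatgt

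The share of a member's windows found elsewhere had a median of 0.979%, was 0 in 64 members and passed 20% in 14. The contrast is shown by the first finger that lies in 1 coding exon of ZNF33B and of ZNF236, which both rose in the TRiC pulldown. The codons of the 4 zinc ligands are in capitals. The ZNF33B finger (chr10:42593897-42593959, minus strand) occurred with 0 mismatches in its paralog ZNF33A at chr10:38055115-38055177, plus strand. For the ZNF236 finger (chr18:76849591-76849653, plus strand) the closest stretch in any other coding sequence with fingers, in ZFP91, had 25 mismatches over 63 bases.
ZNF33B finger: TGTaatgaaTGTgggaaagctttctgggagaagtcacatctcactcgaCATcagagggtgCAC
ZNF236 finger: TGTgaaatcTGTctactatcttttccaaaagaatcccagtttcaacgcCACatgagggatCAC

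Compared with the 308 ZNF genes outside the 200, the members held fewer genes with a KRAB pattern, 68 of 200 (34.0%) against 198 of 308 (64.3%), and fewer on chromosome 19, 57 (28.5%) against 189 (61.4%). Among all protein-coding genes the KRAB pattern was found in 1.53% and 7.38% lay on chromosome 19. The pattern is strict and does not find every KRAB box. The members' coding sequences had a median length of 1855.5 bases (228 to 8169; all protein-coding genes 1272) and a median GC content of 47.4% (from 35.8% to 74.97%; all protein-coding genes 52.9%).

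Per kilobase of coding sequence, the mean TRiC input level of the members ran from 2.55 to 192 CPM, with a median of 9.69. The 10 members with the most counts were ZNF638, ZNF207, ZNF608, ZNF703, ZNF106, ZNF185, ZNF609, ZNF281, ZNF217 and ZNF316. Ordered per length, ZNF207, which binds BUB3 at kinetochores, stood first among these 10 with 148 and 160 CPM per kilobase in both TRiC inputs, followed by ZNF703 with 90.7 and 86.2. ZNF106 was the lowest of the 10 with 22.5 and 23.2. ZNF706, whose coding sequence of 228 bases is the shortest, had the highest level per length of any member, 178 and 206.

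In the TRiC pulldown more members rose than fell. All 200 were tested, and 28 (14%) were higher and 5 (2.5%) lower than in the input (edgeR, adjusted p under 0.05 over 17934 genes). Over all genes tested 8.64% were higher and 10.6% lower. Among the 9872 protein-coding genes with at least as many TRiC input counts as the last member, 8.71% were higher and 17.3% lower. The median log2 fold change of the members was 0.09, against -0.00 over all genes tested and -0.08 over those 9872 genes, and 124 members lay above 0 and 76 below. Both pulldowns lay above both inputs in 83 members (41.5% of 200; all genes 29.3%) and below them in 40 (all genes 31.2%). Before adjustment 62 members had p under 0.05 (all genes 32.5%). The 28 rises were small, 1.204- to 2.00-fold, and against a 1.5-fold change (glmTreat) 0 members were called, beside 0.914% higher and 0.357% lower of all genes. With the 200 ranked by the PFD inputs instead, 171 of them the same genes, 25 were higher and 5 lower. Without TRiC input replicate 1 or 2 the rises numbered 13 and 15 (all genes 4.77% and 3.99%), without TRiC pulldown replicate 1 the falls numbered 16 (all genes 13.9%), and in the fit of all 8 libraries, which called 16 of 18855 genes higher and 15 lower, 0 members were called. With the replicate number as a block 41 members were higher and 8 lower (all genes 11.4% and 14.8%).

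**Figure D1:**
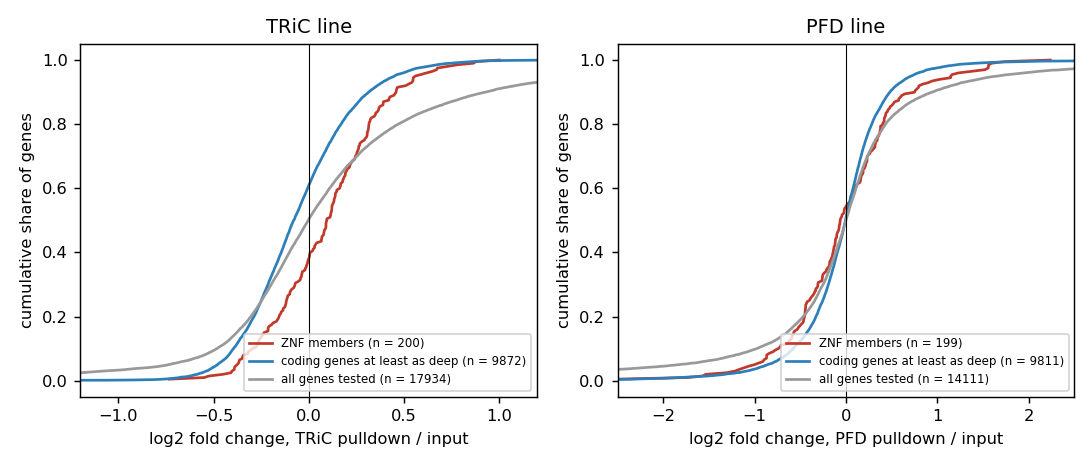
Cumulative share of genes (vertical axis) at or below each log2 fold change of pulldown over input (horizontal axis) for the ZNF members, for protein-coding genes with at least as many TRiC input counts as the last member, and for all genes tested. In the TRiC line (left) the members' curve lies mostly to the right of that of these coding genes, with medians of 0.09 and -0.08, and in the PFD line (right) the medians are -0.06 and -0.01.

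The 6 members with the largest called rises were ZNF33B, ZNF37A, ZNF519, ZNF621, ZNF236 and ZNF605, and 5 of these 6 carry the KRAB pattern. ZNF33B (chr10:42574185-42638570, minus strand, 16 finger patterns) was at 7.39 and 9.31 CPM in the TRiC inputs and at 15.1 and 18.5 CPM in the pulldowns. Both pulldowns lay above both inputs, and the log2 fold change was 1.00 ± 0.18 (SE; edgeR adjusted p = 0.00105). Its paralog ZNF33A, which is also a member and shares the printed finger, was at 19.8 and 24.7 CPM against 22.4 and 29.3 CPM, and there the groups overlapped (log2 fold change 0.21 ± 0.15, edgeR adjusted p = 0.350). In ZNF33B 39.6% of the coding windows occur in ZNF33A, and reads within those windows have no unique alignment.

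ZNF37A (chr10:38094334-38150293, plus strand) rose from 8.08 and 10.3 CPM to 15.7 and 18.1 CPM, a log2 fold change of 0.88 ± 0.17 (edgeR adjusted p = 0.00216). In ZNF519 (chr18:14057457-14132490, minus strand) the inputs nearly coincided at 18.97 and 18.72 CPM and the pulldowns stood apart from each other, at 28.9 and 40.0 CPM, both above the inputs (0.87 ± 0.14, edgeR adjusted p = 0.000601). The inputs of ZNF621 (chr3:40524878-40574685, plus strand), a gene with the linker window printed above, were at 9.85 and 10.9 CPM, and the pulldowns at 16.4 and 19.3 CPM (0.78 ± 0.16, edgeR adjusted p = 0.00297). None of the groups overlapped in these genes.

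ZNF236 (chr18:76822557-76972901, plus strand) was the largest called rise without a KRAB pattern. It carries 30 finger patterns, and 0.0363% of its windows occur in another coding sequence. Its inputs were at 20.0 and 18.5 CPM and its pulldowns at 33.4 and 30.2 CPM, a log2 fold change of 0.73 ± 0.12 (edgeR adjusted p = 0.000747). ZNF605 (chr12:132918306-132956306, minus strand) was at 12.7 and 12.8 CPM in the inputs and at 19.8 and 20.9 CPM in the pulldowns (0.68 ± 0.14, edgeR adjusted p = 0.00366). The replicates of ZNF605 lay close together in both groups, and the groups did not overlap.

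The other 22 members that rose had log2 fold changes of 0.27 to 0.67. Those with the KRAB pattern were ZNF197, ZNF75A, ZNF141, ZNF195 and ZNF283, so that 10 of the 28 rises carried it. Of all 200 members 34.0% carried it. Those without were ZNF280D, ZNF704, ZNF292, ZNF276, ZNF655, ZNF664, ZNF518A, ZNF335, ZNF707, ZNF451, ZNF121, ZNF407, ZNF251, ZNF532, ZNF608, ZNF827 and ZNF638. ZNF280D is uncertain, because 72.5% of its coding windows occur in another gene of the tables that overlaps it on the same strand. In ZNF141 29.2% of the coding windows occur in other coding sequences. In ZNF276 32.3% of the exon bases lie under an opposite-strand gene, and the strand column of the counts is not known. Of the 28, 17 were called higher with the replicate block, DESeq2, both other scalings, every count filter and either composition trend removed. Among these 17 were the 6 largest, ZNF451 and ZNF655. With a TRiC library left out, ZNF195, ZNF197, ZNF251, ZNF276, ZNF280D, ZNF451, ZNF664, ZNF704 and ZNF707 lost their call in at least 1 fit. All 17 lost it against a 1.5-fold change and in the fit of all 8 libraries. Of the others, ZNF141, ZNF283, ZNF407 and ZNF827 lost their call with DESeq2, with cyclic loess or with no filter on low counts. ZNF638, ZNF608, ZNF532, ZNF292, ZNF518A, ZNF335 and ZNF121 kept it there and lost it with a composition trend removed.

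**Figure D2:**
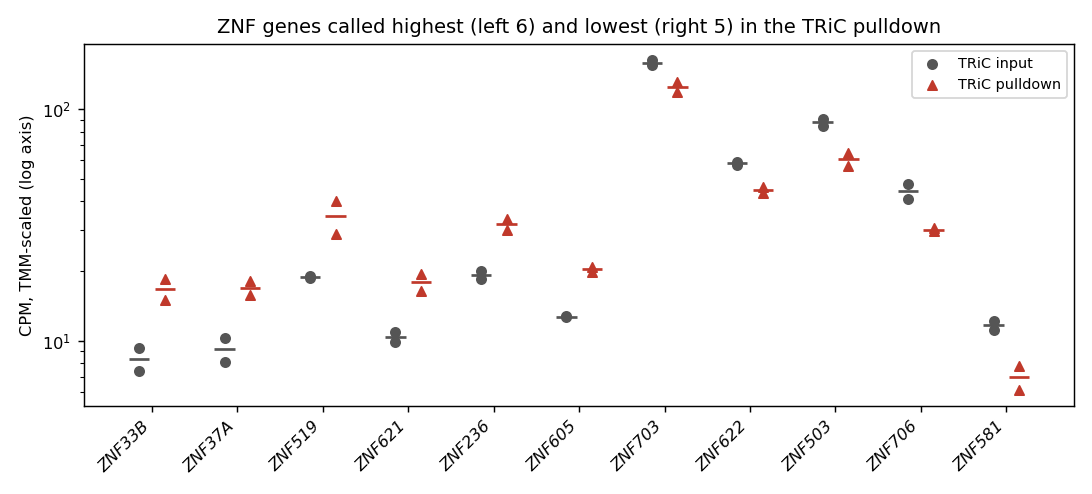
CPM on a log axis in each TRiC input (circles) and TRiC pulldown (triangles) for the 6 members with the largest called rises and the 5 that fell, with bars at the mean of 2 replicates. In all 11 genes both pulldowns lie on the same side of both inputs.

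The 5 members that fell were ZNF581, ZNF706, ZNF503, ZNF622 and ZNF703, none of which has a KRAB pattern or more than 4 finger patterns. ZNF581 (chr19:55635459-55645623, plus strand) was at 12.2 and 11.1 CPM in the TRiC inputs and at 7.80 and 6.16 CPM in the pulldowns (-0.73 ± 0.20, edgeR adjusted p = 0.0136). ZNF706 was at 41.0 and 47.4 CPM against 29.9 and 30.5 CPM (-0.55 ± 0.11, edgeR adjusted p = 0.00251). In both genes the groups were apart, and both have short coding sequences, 591 and 228 bases. Neither was called with the coding length trend removed, and ZNF581 also lost its call without TRiC input replicate 1 and ZNF706 without TRiC input replicate 2.

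ZNF703 and ZNF503 form the NET family of corepressors, which lack the tandem fingers typical of the family. ZNF503 (chr10:75397830-75401764, minus strand) was at 90.3 and 84.7 CPM in the TRiC inputs and at 64.8 and 56.9 CPM in the pulldowns (-0.52 ± 0.10, edgeR adjusted p = 0.00115). ZNF703 was at 162 and 154 CPM against 131 and 118 CPM (-0.34 ± 0.08, edgeR adjusted p = 0.00758). Both NET genes thus fell in the TRiC pulldown, with no overlap between groups, and both have GC-rich coding sequences (70.1% and 72.4%). With the coding GC trend removed ZNF503 was still called and ZNF703 was not, and ZNF703 also lost its call without TRiC input replicate 1. In the PFD line ZNF703 had 77.2 and 64.3 CPM in the inputs and 43.1 and 59.7 CPM in the pulldowns (-0.46 ± 0.25, edgeR adjusted p = 0.815), and ZNF503 at 20.2 and 26.9 against 12.9 and 24.8 CPM (-0.31 ± 0.45, edgeR adjusted p = 0.965).

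Neither of the 2 members with a role at the ribosome was called higher with TRiC. ZNF622, a late maturation factor of the large ribosomal subunit, fell from 59.3 and 57.2 CPM to 46.2 and 43.5 CPM (-0.38 ± 0.10, edgeR adjusted p = 0.0115), a call that was lost without either TRiC input replicate. ZNF598, the ubiquitin ligase that marks collided ribosomes, was at 47.0 and 37.3 CPM against 44.7 and 37.5 CPM, so that the groups overlapped (-0.03 ± 0.12, edgeR adjusted p = 0.886). With PFD the ZNF598 pulldowns, at 102 and 123 CPM, lay above the inputs at 87.6 and 63.2 CPM, but the difference did not pass the test (0.58 ± 0.22, edgeR adjusted p = 0.706).

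Of 11 chromatin and corepressor scaffolds, 4 were higher in the TRiC pulldown (all genes 8.64%), none lower (all genes 10.6%), and the median was 0.20. The list was drawn up with earlier results of these data known. Its genes ranked 8 (ZNF281) to 33 (ZNF518A) among the members by TRiC input counts, so all genes tested differ from them in depth. The 4 of 11 is therefore a description. ZNF518A was at 41.2 and 44.4 CPM in the TRiC inputs and at 55.7 and 62.7 CPM in the pulldowns (0.47 ± 0.10, edgeR adjusted p = 0.00433). ZNF451, a SUMO ligase, was at 66.7 and 66.5 CPM against 80.3 and 94.6 CPM (0.39 ± 0.10, edgeR adjusted p = 0.00858). ZNF532, at 51.3 and 52.4 CPM against 65.7 and 64.6 CPM, rose by 0.33 ± 0.09 on the log2 scale (edgeR adjusted p = 0.0191). ZNF827, which recruits the NuRD complex, rose by 0.30 ± 0.10 (edgeR adjusted p = 0.0433), from 45.1 and 43.7 CPM to 56.3 and 52.6 CPM. With the coding length trend removed, ZNF451 alone of these 4 was still called, and ZNF827 also lost its call without the filter on low counts and without TRiC input replicate 1, TRiC input replicate 2 or TRiC pulldown replicate 1. Without TRiC input replicate 1 none of the 4 was called, and without TRiC input replicate 2 only ZNF518A was.

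The remaining scaffolds were ZNF281, ZNF217, ZNF644, ZNF462, ZNF592, ZNF687 and ZNF518B, with TRiC log2 fold changes of -0.16 (ZNF687) to 0.22 (ZNF644), none of which passed the test. ZNF592 and ZNF687, the close relatives of ZNF532, were at -0.07 ± 0.10 and -0.16 ± 0.10, whereas ZNF532 rose. ZNF518B, the paralog of ZNF518A, was at 0.15 ± 0.10. Whether relatives differ from each other was not tested. In the PFD pulldown the 11 scaffolds lay between -0.18 and 0.30, and none was called.

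Among 5 RNA-binding or splicing proteins only ZNF638, a nuclear protein that binds RNA and DNA and the member with the most counts, was called with TRiC. It rose from 236 and 251 CPM to 282 and 304 CPM (0.27 ± 0.07, edgeR adjusted p = 0.0172), but was not called with the coding GC or length trend removed or without either TRiC input replicate. ZNF385A lay at 21.97 and 26.6 CPM in the TRiC inputs and at 20.5 and 17.7 CPM in the pulldowns, with no overlap (-0.35 ± 0.14, edgeR adjusted p = 0.0937). The splicing-associated ZNF326 and ZNF830 had TRiC log2 fold changes of 0.03 ± 0.10 and -0.27 ± 0.16, and ZNF346, which binds double-stranded RNA, 0.11 ± 0.17.

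ZNF207 was at 222 and 239 CPM in the TRiC inputs and at 251 and 273 CPM in the pulldowns, apart but not called (0.18 ± 0.08, edgeR adjusted p = 0.105). Of the activators of housekeeping genes, ZNF143 and its paralog ZNF76 had TRiC log2 fold changes of 0.09 ± 0.12 and 0.31 ± 0.12 (edgeR adjusted p = 0.643 and 0.0764), and ZNF410, the activator of CHD4, -0.16 ± 0.20. ZNF521, a cofactor of BMP and EBF signalling, was at 11.1 and 9.21 CPM against 10.1 and 11.3 CPM. It was the member with the least signal in the PFD line, with 14 and 5 counts in the inputs of that line and 1 and 3 in its pulldowns, and was not tested there.

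Of the other members with the most counts, ZNF608 rose from 154 and 163 CPM to 195 and 202 CPM in the TRiC pulldown (0.32 ± 0.08, edgeR adjusted p = 0.00716; not called with the coding length trend removed or without either TRiC input replicate), while its paralog ZNF609, at 125 and 120 CPM against 123 and 138 CPM, overlapped between groups (0.09 ± 0.08, edgeR adjusted p = 0.506). ZNF106, the LIM-domain protein ZNF185 and ZNF316 had TRiC log2 fold changes of 0.08 ± 0.09, -0.11 ± 0.09 and 0.01 ± 0.11, none called.

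By sequence class, the 68 members with a KRAB pattern had a median log2 fold change of 0.17, with 10 higher (14.7%) and none lower. The 132 without had a median of 0.07, with 18 higher (13.6%) and 5 lower (3.79%). The shares called higher were thus close in both classes. Over all genes tested 8.64% were higher and 10.6% lower. By finger number the medians were -0.23 in the 4 members without a finger pattern, -0.08 in 24 members with 1 to 3, 0.09 in 53 with 4 to 8, 0.12 in 57 with 9 to 12 and 0.17 in 62 with 13 or more. No member with 9 or more fingers fell, and 18 of these 119 rose (17.5% of those with 9 to 12 and 12.9% of those with 13 or more). On chromosome 19, 2 of 57 members rose (3.51%) and 1 fell (1.75%). Elsewhere 26 of 143 rose (18.2%) and 4 fell (2.80%), and the medians were 0.08 and 0.12. These classes overlap each other, and no test of a difference between them was made.

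Base composition moved with these classes, and its part in the values was not tested. Among the 67 members with the lowest coding GC content (35.8% to 42.8%) 14 rose (20.9%) and none fell, with a median of 0.22. The 66 members in the middle held 9 rises (13.6%) and 1 fall (1.52%; median 0.12). The 67 with the highest (53.0% to 74.97%) held 5 rises (7.46%) and 4 falls (5.97%; median -0.10). Over all genes tested the shares were 8.64% and 10.6%. Across the 200 members the TRiC log2 fold change and coding GC content had a Spearman correlation of -0.40 (Pearson -0.42), and across 14611 protein-coding genes -0.20 (Pearson -0.13). Genes share libraries and are not independent replicates, so these correlations are descriptions. Within the group of lowest GC content the medians with and without a KRAB pattern were 0.23 (34 members) and 0.20 (33 members), with 7 rises each. In the middle group they were 0.12 (28 members) and 0.09 (38 members), with 3 and 6 rises. In the highest they were 0.09 (6 members) and -0.11 (61 members), with 0 and 5 rises. Coding length had a Spearman correlation of 0.22 with the TRiC log2 fold change in the members and 0.35 in the protein-coding genes. With the GC trend of all protein-coding genes removed, 34 members were higher and 6 lower, 24 and 4 of them called without that step, while the shares over all genes went to 12.2% and 13.7%. With the length trend removed, 21 were higher and 4 lower, 19 and 3 of them called before, against 6.44% and 6.95% over all genes. Both steps were chosen after the data were seen.

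The PFD pulldown gave no called member. Of 199 members tested none was higher and none lower (edgeR, adjusted p under 0.05 over 14111 genes), beside 0.0496% and 0.191% of all genes tested. Before adjustment 4 members had p under 0.05 (all genes 6.93%), and DESeq2 called 0 higher and 1 lower. The median log2 fold change was -0.06 (all genes -0.00), and 91 members lay above 0 and 108 below. Both PFD pulldowns lay above both inputs in 38 members (19.1% of 199; all genes 18.3%) and below them in 33 (16.6%; all genes 20.4%). The common dispersion was 0.331 in the PFD fit against 0.0153 in the TRiC fit. In simulated data with 200 genes changed 2-fold the PFD fit recovered 33 and the TRiC fit 111. Those 200 were drawn from all genes tested, so the recovery among the members is not known. With either PFD pulldown left out some members were called in both directions, more of them without PFD pulldown replicate 2. The lone pulldown was then assumed to vary like the other libraries, and calls over all genes were not set beside these.

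The highest PFD values, among members with a mean of at least 100 counts, were those of ZNF627, ZNF512B, ZNF875 and ZNF41. ZNF627 had 2.44 and 2.99 CPM in the inputs against 1.08 and 15.2 CPM in the pulldowns, so that the pulldowns lay on either side of the inputs (1.59 ± 1.27, edgeR adjusted p = 0.901). ZNF512B was at 9.07 and 5.21 CPM against 30.9 and 11.5 CPM (1.56 ± 0.64, edgeR adjusted p = 0.719). The KRAB genes ZNF875 and ZNF41 were also above their inputs in both pulldowns, at 18.9 and 6.25 CPM over 4.61 and 3.86 CPM, and at 24.6 and 8.98 CPM over 6.90 and 4.43 CPM. In each of these last 3 genes pulldown 1 was over 2 times pulldown 2.

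The lowest values were those of ZNF428, ZNF782, ZNF549 and ZNF689. ZNF428 had 42.9 and 46.8 CPM in the inputs against 21.0 and 6.39 CPM in the pulldowns, the clearest gap among the PFD extremes (-1.73 ± 0.54, edgeR adjusted p = 0.679). It was the 1 member that DESeq2 called lower (adjusted p = 0.0286), in a test that made 51 false calls beside 53 true ones in simulated PFD data. It was also called lower with the replicate number as a block, and 32.1% of its exon bases lie under an opposite-strand gene. ZNF549 had 0 and 177 counts in the PFD pulldowns, over 224 and 70 counts in the inputs, and ZNF782 had 1 and 175 counts over 262 and 55. Their values thus rest on pulldown 1. ZNF689 was at 5.03 and 13.6 CPM against 2.80 and 5.40 CPM, with overlap.

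**Figure D3:**
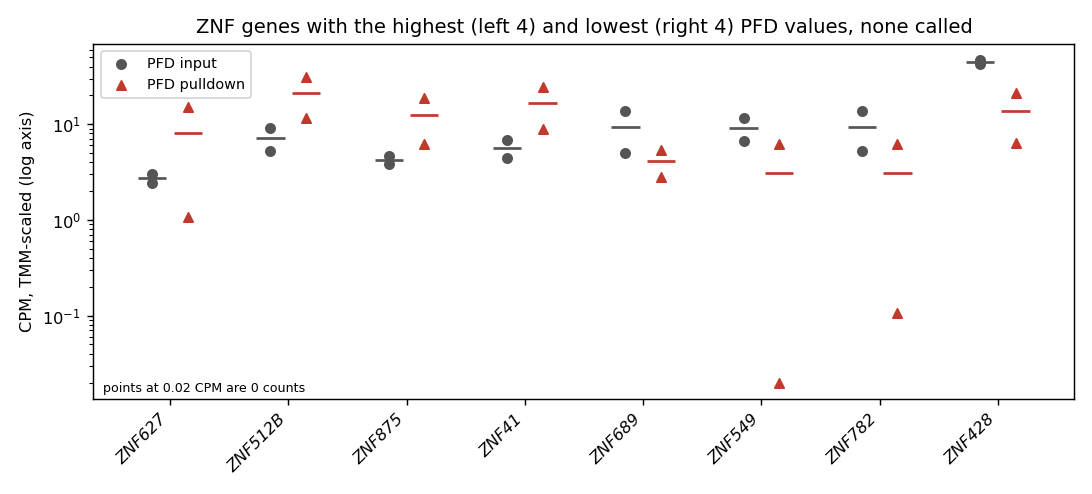
CPM on a log axis in each PFD input (circles) and PFD pulldown (triangles) for the members with the 4 highest and 4 lowest PFD log2 fold changes at a mean of at least 100 counts, with bars at the mean of 2 replicates and 0 counts drawn at 0.02 CPM. Apart from ZNF689, every gene has pulldowns over 2-fold apart, and none passed the test.

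Set side by side, the 6 largest TRiC rises had PFD log2 fold changes of -0.72 ± 0.75 (ZNF33B), 0.38 ± 0.57 (ZNF37A), -0.07 ± 0.82 (ZNF519), 0.52 ± 0.46 (ZNF621), -0.06 ± 0.47 (ZNF236) and 1.15 ± 0.68 (ZNF605). The direct test of the difference between both enrichments called no member in either direction (edgeR, all 8 libraries, 18855 genes), beside 0.0212% and 0.0159% of all genes. Before adjustment 8 members had p under 0.05 (all genes 14.8%), and DESeq2 called ZNF280D with the larger TRiC and ZNF362 with the larger PFD enrichment. In simulated data the DESeq2 interaction recovered 42 of 200 changed genes with 63 false calls, and edgeR 6 with 1 false call. A rise called with TRiC and not with PFD is therefore not shown to differ between the chaperones.

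In the related families of finger genes the shares called higher with TRiC are set beside 8.64% of all genes tested, and the shares called lower beside 10.6%. Of 248 ZNF genes outside the 200 that could be tested with TRiC, 7 (2.82%) were higher and none lower, with a median of 0.21. Of 41 ZBTB genes 4 (9.76%) were higher and 1 lower (median 0.07), of 18 ZSCAN genes 1 and 1 (0.11), of 18 ZFP genes 1 and 1 (0.19), of 13 KLF genes 1 and 2 (-0.11), of 6 SP genes 0 and 1 (-0.15), and of 8 ZKSCAN genes none (0.24). With PFD 1 ZNF gene outside the 200 was lower and no gene of the other families was called. These lists differ in depth from the members, and no test of the difference was made.

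Of 11 genes of the silencing machinery that KRAB proteins recruit, 1 (9.09%) was higher and 2 (18.2%) lower with TRiC, shares near those of the protein-coding genes with at least the last member's input counts (8.71% and 17.3%). TRIM28, the corepressor that KRAB boxes bind, was at 808 and 778 CPM in the TRiC inputs and at 668 and 576 CPM in the pulldowns (-0.35 ± 0.07, edgeR adjusted p = 0.00304). CBX1, an HP1 protein, was at 103 and 93.8 CPM against 84.2 and 74.0 CPM (-0.32 ± 0.09, edgeR adjusted p = 0.0243). CHD4, a remodeller of the NuRD complex, rose from 34.0 and 36.0 CPM to 41.9 and 49.7 CPM (0.38 ± 0.11, edgeR adjusted p = 0.0220). SETDB1 was at 0.20 ± 0.09 (edgeR adjusted p = 0.148), and none of the 11 was called with PFD.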

How the data were processed

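The authors deposited whole-number counts per gene, without normalization, for 8 ribosome-profiling libraries in a table per line. Per the labels and methods, fragments were processed with UMI-tools, Bowtie2 2.4.2 (removal of non-coding RNA) and STAR 2.7.10a (hg38, at most 2 mismatches, unique alignments, gene counts). The annotation release and strand column are not given in the sources used here. Of the identifiers, 60463 matched GENCODE 44, which gave symbols, coordinates, coding sequence, fingers, KRAB pattern and 28-base windows, and 201 did not.

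Here the deposited counts of each line were fitted on their own, pulldown against input, by the quasi-likelihood test of edgeR 4.0.16 (R 4.3.3) after TMM scaling and filterByExpr. No replicate block was used, and p-values were adjusted by Benjamini-Hochberg over all genes. The difference between lines was an interaction over all 8 libraries. CPM are scaled by TMM, and ± is the standard error of the log2 fold change. Alternatives tried were DESeq2 1.42.0, library totals, a replicate block, cyclic loess with limma 3.58.1, no filter, at least 10 or 100 counts in every library, glmTreat, all libraries in one fit, leaving out each library, and other rankings of members. Fits were tested on simulated data, with 200 genes drawn from all genes tested and changed 2-fold. Replicate numbers were checked for pairing.

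The members, role lists, families and named genes were chosen with earlier results of these data known. Named are members on the role lists, the 10 with the most TRiC input counts, the 6 highest and 6 lowest called with TRiC (mean of at least 100 counts, same direction in both replicates), and the 4 highest and 4 lowest with PFD. The listed ZNF593 and ZNF423 were not among the 200. ZNF33A, ZNF280D, ZNF362, ZNF333, ZNF467 and ZNF655, and the naming of the smaller TRiC rises, are outside this rule and were picked with their values in view. Depth was 9523128 to 32637658 counts per library.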

Additional observations from a re-analysis of the deposited data

How the results depend on the processing

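Against 28 members higher and 5 lower with TRiC, requiring at least 100 counts in every library gave 45 higher (all genes 15.2%, from 8.64%), and glmTreat against a 1.5-fold change and the fit of all 8 libraries each gave 0 higher and 0 lower. The fit of all 8 libraries called 16 genes higher and 15 lower of 18855. Leaving out each TRiC library, which leaves 1 sample in that arm that is assumed to vary like the others, gave 13 to 37 higher and 2 to 16 lower. Without TRiC input replicate 1 there were 13 and 2, without TRiC input replicate 2, 15 higher, and without TRiC pulldown replicate 1, 16 lower. The cause was not tested. The members' TRiC median of 0.09 became 0.14 with library totals, 0.12 with cyclic loess, 0.16 with at least 100 counts and 0.059 with the coding length trend removed, an alternative added after the data were seen. Over all genes tested the median went from -0.003 to 0.044, -0.018, 0.006 and -0.002 in the same order. Over all genes, library totals turned 1550 higher and 1894 lower into 1801 and 1265.

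With PFD, ZNF428 was the 1 member lower with the replicate block, with DESeq2 and with no filter on low counts, and ranking the ZNF genes by the PFD inputs also gave 1 lower. Leaving out a PFD library gave 0 to 12 higher and 0 to 19 lower, both highest without PFD pulldown replicate 2. Without PFD pulldown replicate 1 there were 2 and 2. Each such fit has 1 sample in an arm, and calls over all genes were not set beside these member counts. Whether members were called more often than other genes in those fits is therefore not known. The interaction gave 1 larger and 1 smaller TRiC enrichment with DESeq2 and 1 larger (ZNF608) with no filter. The same limit holds for the interaction fits with a library left out, given next. Leaving out a library gave 0 to 38 larger and 0 to 11 smaller, again highest without PFD pulldown replicate 2, and 7 and 5 without PFD pulldown replicate 1. The cause was not tested.

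Samples with the same replicate number did not deviate together (correlation of deviations 0.0587 with TRiC and -0.00887 with PFD). Input and pulldown were taken from ribosome pellets, and whether the same number marks the same pellet is not stated, so pairing remains possible. The replicate block gave 41 higher, among them all 28, and 8 lower with TRiC, and 0 higher with PFD. The 17 named members called with TRiC kept their sign under every alternative, and each lost its call under at least 1. Of 29 named members not called with TRiC, 16 changed sign in at least 1 alternative, and of 45 with PFD, 20 did.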

Other observations

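Some members differed in level between the inputs of both lines. Scaled over all 8 libraries, the median ratio of the PFD input to the TRiC input was 0.989 for the members, with 29 members under 0.5 and 9 over 2, against 5522 and 2288 of 18716 genes. The members were chosen for high TRiC input counts, the denominator of this ratio, which favours low ratios among them. ZNF521 had the lowest ratio, with 10.96 and 9.12 CPM in the TRiC inputs and 0.744 and 0.483 CPM in the PFD inputs. ZNF467 followed with 14.7 and 13.5 CPM against 0.213 and 1.55 CPM. ZNF608, one of the 10 members with the most counts, was at 153 and 162 CPM against 44.1 and 32.0 CPM, and the NET gene ZNF503 at 89.4 and 83.9 CPM against 20.7 and 26.9 CPM. In the opposite direction ZNF428, the member with the highest ratio, was at 18.99 and 18.02 CPM in the TRiC inputs and at 43.9 and 46.8 CPM in the PFD inputs. The tagged gene, the clone and the library preparation of both lines cannot be told apart, and these genes were picked after their values were seen.

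ZNF467 also had the largest PFD log2 fold change of any member, 2.24 ± 1.65, from 4 and 16 counts in the PFD inputs to 52 and 74 in the pulldowns, and ZNF410 the lowest, -2.54 ± 1.498, from 74 and 76 counts to 2 and 47. Neither passed the test. ZNF333 had 0 and 104 counts in the PFD pulldowns.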
